A study of Caenorhabditis elegans with 12 samples.

Results

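Titanium dioxide (TiO2) given without ultraviolet light was compared with no treatment in whole Caenorhabditis elegans worms, over all 22548 probe sets of an Affymetrix array that are not array controls. The comparison uses 6 of the study's 12 arrays: the 3 labelled TiO2 and the 3 labelled Control. TiO2 worms spent 24 h at 20 °C in a potassium and sodium chloride medium with TiO2 and without food. Control worms spent the same time in the same medium without TiO2 and without food. The worms of every group were wild-type hermaphrodite young adults, 3 days old, from cultures synchronized with hypochlorite, so hunger for 24 h is shared by both sides. The other 6 arrays, 3 of UV+TiO2 worms and 3 of UV worms, were irradiated for 4 h at the start of the same period. They are used here because UV+TiO2 against UV shows the same agent in arrays that TiO2 against Control does not contain. The dose and the particle size of TiO2 are not given in the sources used here, and no gene serves as a check that a worm took up TiO2. Whether replicate arrays stem from different worm cultures is not in the labels, so the p-values rest on a spread between arrays that may be technical.

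TiO2 is a white pigment and sunscreen filter made of mineral particles. It absorbs ultraviolet light, and the lit particle surface can then produce reactive oxygen species; in the dark this light reaction does not run. Worms swallow particles with their food or medium, and the gut, the pharynx and the cuticle-covered epidermis are the surfaces that meet them. Known worm defences at these surfaces include SKN-1, which switches on glutathione S-transferases, HIF-1, which acts in low oxygen and in hydrogen sulfide and cyanide detoxification, heat shock proteins, metallothioneins, and small antimicrobial peptides that the epidermis makes after wounding or fungal infection.

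TiO2 without UV left almost all of the transcriptome within the spread of the arrays. Of 22548 probe sets 1 passed limma's adjusted p of 0.05, or 0.00443%, and it was lower with TiO2. With p left unadjusted, 1027 probe sets (4.55%) were under 0.05, of which 610 (2.71%) were lower and 417 (1.85%) higher. No probe set was 2-fold or more higher by its group means, and 4 were 2-fold or more lower. At 1.5-fold or more the counts were 17 higher and 55 lower. The median difference (TiO2 minus Control, log2) was -0.0019 over all probe sets, and the central 95% lay between -0.30 and 0.27.

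The absence of calls came with a stated precision. The unadjusted 95% interval of the difference stayed within 2-fold for 22399 probe sets, or 99.3%, and within 1.5-fold for 20423, or 90.6%. It stayed within 1.25-fold for only 9323, or 41.3%. These intervals used a spread estimated over the arrays of all groups. TiO2 and Control arrays varied more within their group (median SD 0.136 and 0.177) than UV+TiO2 and UV arrays (0.0933 and 0.104). The intervals may therefore be too narrow for TiO2 against Control. In a fit of the 6 TiO2 and Control arrays alone, the interval stayed within 2-fold for 22226 probe sets. In both fits differences of 2-fold or more lay outside the interval of nearly every probe set. In the fit of all groups differences of 1.25-fold lay inside the interval of most.

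The TiO2 and Control arrays were not set apart by their overall profiles. Each Control array correlated best with a TiO2 array rather than with another Control array, with r between 0.9937 and 0.9962 over all probe sets. Pairs of TiO2 arrays had r between 0.9912 and 0.9967, pairs of Control arrays between 0.9866 and 0.9928, and mixed pairs between 0.9861 and 0.9962. The SD of the log2 values was 2.23 in TiO2 replicate 1 and 2.22 in Control replicate 3, against 2.30 to 2.33 in the others. The median SD of a probe set within a group was 0.136 in TiO2 arrays and 0.177 in Control arrays, compared with 0.0933 in UV+TiO2 arrays and 0.104 in UV arrays.

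Markers of the adult stage named by the labels were high in both groups. Adult yolk and cuticle markers, among them the vitellogenins that adult hermaphrodites make for their eggs, averaged 12.8 to 12.9 on the log2 scale in TiO2 arrays and 12.8 to 12.9 in Control arrays. Markers of embryos and larvae were also detected, with averages of 8.03 to 8.15 in TiO2 arrays and 8.01 to 8.15 in Control arrays. Over 10 marker groups for tissues and stages, 86 genes were measured and none passed limma's adjusted p of 0.05. The group medians of the difference ran from -0.17 for 7 neuronal genes to 0.05 for 8 adult genes.

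The gene that passed was grl-21 (ZC168.5, chromosome IV), one of the worm's hedgehog-related genes. These genes encode secreted proteins, many of them made in the epidermis, and the grl proteins carry a ground-like domain. Its log2 value was 8.82, 8.71 and 8.76 in the TiO2 arrays, against 9.37, 9.32 and 9.38 in the Control arrays. All TiO2 arrays lay below all Control arrays, and the replicates of each group lay close together beside the distance between the groups. grl-21 fell by 0.60 on the log2 scale (SE 0.0706, 95% interval -0.75 to -0.44, limma adjusted p = 0.0394), or 1.51-fold. As whole worms were measured, fewer cells that express a gene and less RNA per cell cannot be told apart. The difference itself stayed between -0.65 and -0.57 in 21 alternative fits, of which several cannot change it. The adjusted p was under 0.05 in 4 of the 21 and ran from 0.0137 to 1.0. It was 1.0 when the 6 TiO2 and Control arrays were fitted alone, and 0.0921 and 0.0625 without Control replicate 1 and without Control replicate 3.

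The UV+TiO2 and UV arrays gave grl-21 another reading that shares no array with the TiO2 and Control arrays. Its value was 6.51, 6.49 and 6.48 in UV+TiO2 arrays, against 6.94, 6.95 and 6.91 in UV arrays. The difference was -0.44 (limma adjusted p = 0.0459), again with no overlap between the groups, and the spread behind this p was estimated over all 12 arrays. The test of whether the TiO2 difference changed with UV gave 0.16 (interval -0.06 to 0.38, adjusted p = 0.962 and unadjusted p = 0.138 by limma).

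Of the other hedgehog-related genes none passed. Among 54 measured, TiO2 arrays lay below all Control arrays for 5 and above them for 2. Over all 17118 genes with 1 probe set each, these shares were 3.1% lower and 2.76% higher. Beside grl-21 the lower ones were grl-4 (-0.41), grl-11 (-0.34), grl-14 (-0.21) and grd-12 (-0.18), and the higher ones were grd-11 (0.21) and grl-17 (0.18). The median over the 54 genes was 0.02. The patched-related genes, whose products resemble the receptor for hedgehog proteins in other animals, had a median of 0.06 over 26 genes, with 1 gene lower and 1 higher without overlap.

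The 11 genes with the smallest p after grl-21 among those lower with TiO2 had limma adjusted p between 0.181 and 0.205, so none passed. They were chosen as the genes with the smallest p with complete separation of TiO2 from Control arrays, and that separation is therefore a description. dct-7 (F15E6.8), known as a gene controlled by DAF-16 that affects germline tumours, had 8.78, 8.50 and 8.22 in TiO2 arrays and 9.62, 9.47 and 9.52 in Control arrays. Its difference was -1.04 (interval -1.41 to -0.66, adjusted p = 0.181). F26A1.8, with no role given here, had 6.84, 6.56 and 6.05 in TiO2 arrays and 8.04, 7.54 and 7.28 in Control arrays, a difference of -1.14 with adjusted p = 0.201. Among probe sets matched to a gene these were the largest differences by group means in either direction, while a probe set with no gene name was at -1.16. For both genes the TiO2 arrays were widely spread.

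cysl-2, a cysteine synthase-like gene that detoxifies cyanide and is a known HIF-1 target, had 9.51, 9.82 and 9.37 in TiO2 arrays and 10.14, 10.33 and 10.07 in Control arrays (difference -0.61, adjusted p = 0.201). irg-8, an infection response gene, had 6.36, 6.45 and 6.26 in TiO2 arrays and 7.06, 7.16 and 6.86 in Control arrays (-0.67, adjusted p = 0.181). pqn-71, which encodes a protein rich in glutamine and asparagine, had 8.53, 8.50 and 8.59 in TiO2 arrays and 9.09, 9.36 and 9.07 in Control arrays (-0.63, adjusted p = 0.181). In all of them the lowest Control array stood clearly above the highest TiO2 array. col-39, a cuticle collagen, differed by -0.57, and clec-174, which has a C-type lectin domain, by -0.67. hpo-26, named for hypersensitivity to a bacterial pore-forming toxin, differed by -0.79, and F13B6.3, T04F3.1 and latd-1 by -0.50, -0.64 and -0.62. The probe sets of clec-174, cysl-2 and hpo-26 are of kinds that can also detect related genes.

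The 12 genes with the smallest p among those higher with TiO2 had limma adjusted p between 0.181 and 0.47, and none passed. syg-2, an immunoglobulin-type adhesion protein that guides the placing of synapses, had 7.74, 7.66 and 7.83 in TiO2 arrays and 7.33, 7.17 and 7.12 in Control arrays (difference 0.54, adjusted p = 0.181). T22F3.11 had 6.75, 6.92 and 6.66 in TiO2 arrays and 5.49, 6.21 and 5.90 in Control arrays (0.91, adjusted p = 0.181), and its other probe set was also higher without overlap, by 0.59. lact-5, with a beta-lactamase domain, had 6.83, 6.96 and 6.97 in TiO2 arrays and 6.29, 6.40 and 6.12 in Control arrays (0.65, adjusted p = 0.181). The Control arrays of T22F3.11 differed widely among themselves, while syg-2 and lact-5 had tight replicates.

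The remaining 9 were cpg-24 (0.55), a chondroitin proteoglycan gene, col-121 (0.44), a cuticle collagen gene, fbxb-101 (0.56), an F-box gene, T19A5.3 (0.45), bet-2 (0.39), a bromodomain gene, drd-1 (0.37), ptr-4 (0.60), a patched-related gene, pud-4 (0.72) and F58H1.5 (0.45). Other probe sets of the same genes gave smaller separations. For cpg-24, col-121 and T19A5.3 they were higher by 0.32 to 0.46 with overlapping arrays. For bet-2 they gave 0.15 and -0.08, and for ptr-4 0.11, also with overlapping arrays. The named probe sets of syg-2, cpg-24 and col-121 are of a kind that can also detect related genes.

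**Figure D1:**
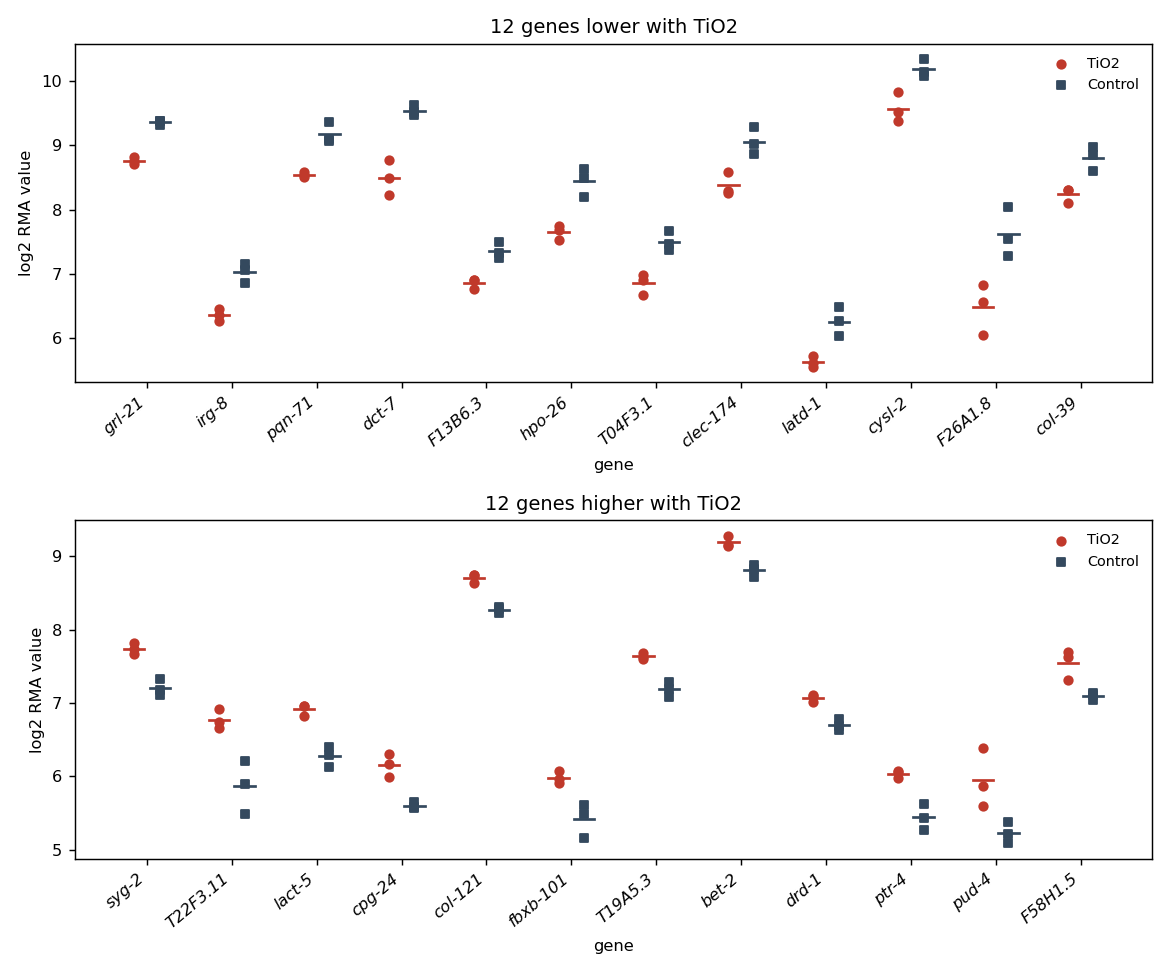
Log2 RMA value (vertical axis) of the 12 genes with the smallest p among those lower with TiO2 (top) and the 12 among those higher (bottom) whose arrays did not overlap; each point is 1 array, the TiO2 arrays left of the Control arrays, and each line a group mean. Only grl-21 passed limma's adjusted p of 0.05, with its TiO2 arrays between 8.71 and 8.82 and its Control arrays between 9.32 and 9.38.

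Set against UV+TiO2 and UV arrays, the lower genes carried over in sign more often than in size. Of the 12 lower genes 10 were also below 0 in UV+TiO2 against UV, with a median of -0.20 there and -0.64 in TiO2 against Control. Of the 12 higher genes 8 were above 0, with medians of 0.04 and 0.54. The interaction had an unadjusted p under 0.05 for 8 of the lower and 10 of the higher genes, and none passed limma's adjusted p of 0.05, the smallest being 0.673 and 0.761. These genes were picked for their differences in TiO2 against Control. Over all probe sets the interaction gave 0 calls, and 1162 probe sets, or 5.15%, had an unadjusted p under 0.05.

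col-39 had nearly the same difference in both sets of arrays, and grl-21 and dct-7 had a somewhat smaller one under UV. dct-7 was at -0.90 in UV+TiO2 against UV (adjusted p = 0.0955) and col-39 at -0.56 (adjusted p = 0.0954), with no overlap for either. F26A1.8 was at -0.50 and cysl-2 at -0.21, both without overlap. clec-174 (0.06), F13B6.3 (0.02) and latd-1 (-0.02) showed no difference of that size. Among the higher genes T19A5.3 (0.27), drd-1 (0.20) and syg-2 (0.09) had no overlap in the same direction.

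**Figure D2:**
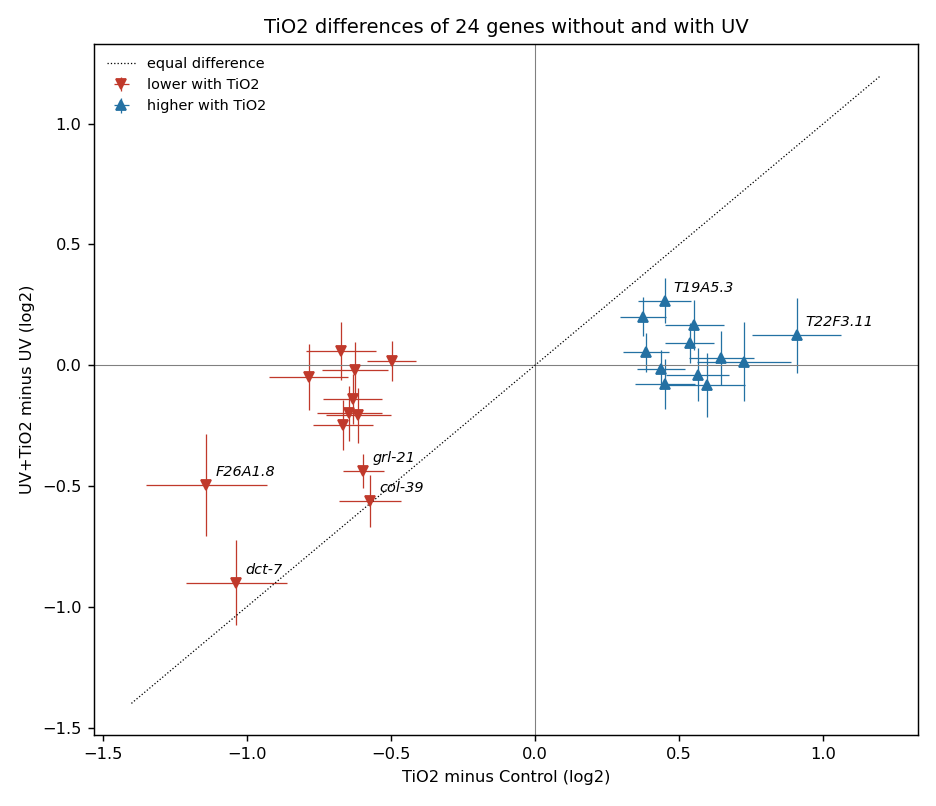
Log2 difference of UV+TiO2 minus UV (vertical axis) against TiO2 minus Control (horizontal axis) for the 24 genes, with bars of ± 1 SE; the dotted line marks equal differences. col-39 lies near the line, grl-21 and dct-7 lie above it by 0.16 and 0.14, and most others lie nearer to 0 on the vertical axis.

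The reverse reading starts from the 20 probe sets, or 0.0887%, that passed for UV+TiO2 against UV, all of them lower. The fit estimated the spread over all 12 arrays, so the TiO2 and Control arrays had a part in these calls: there were 36 without Control replicate 1. For TiO2 against Control 16 of the 20 were below 0 and 4 above. For 8 of the 20 all TiO2 arrays lay below all Control arrays, beside 3.15% of all probe sets. The median difference was -0.17 for TiO2 against Control and -0.92 for UV+TiO2 against UV. A fit of the 6 UV+TiO2 and UV arrays alone called 17 probe sets, 14 of them among the 20. Of these 17, 13 were below 0 for TiO2 against Control, and 4, or 23.5%, were lower without overlap. The 8 of the first reading were grl-21, oig-2 and 6 peptide genes described below. oig-2, an immunoglobulin-domain gene, had 8.67, 8.72 and 8.80 in TiO2 arrays and 8.98, 9.13 and 8.87 in Control arrays (difference -0.26), beside -0.71 with UV. The neighbours F15E6.3 and F15E6.4 of dct-7 on chromosome IV were among the 20, at -1.36 and -0.92 with UV, and gave -0.13 and -0.18 without it, with overlapping arrays. Another probe set of F15E6.3 was at -1.59 with UV (limma adjusted p = 0.0823) and at 0.12 without it. The neighbours F15E6.5, F15E6.6 and F15E6.9 were at 0.03, 0.17 and 0.02 with UV.

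Over the top ranks by p for TiO2 against Control the sign was shared more often than over all probe sets. UV+TiO2 against UV had the same sign for 35 of the first 50 probe sets and for 63.0% of the first 200, beside 11275 of all 22548. Of the 710 probe sets lower without overlap in TiO2 against Control 107, or 15.1%, were also lower without overlap in UV+TiO2 against UV. They made up 5.74% of the 1864 that were lower there. Of the 613 higher ones, which are 2.72% of all probe sets, 64, or 10.4%, were also higher, which was 2.88% of 2221. Across all probe sets 8.27% were lower and 9.85% higher without overlap in UV+TiO2 against UV.

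The list of epidermal peptide genes had more members below the Control arrays than the background share. It holds the nlp-27 type peptides, the caenacins (cnc) and the fipr peptides, small secreted peptides of which several are known to be made by the epidermis in response to fungal infection or wounding. None of the 27 measured genes passed for TiO2 against Control. TiO2 arrays lay below all Control arrays for 7 of them, or 25.9%, and above for 0, beside 3.1% and 2.76% of all genes. The median was -0.06, with 22 genes below 0, and earlier results of these data had already pointed to this family under UV.

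The 7 genes were fipr-26, nlp-28, nlp-29, nlp-31, nlp-33, cnc-4 and cnc-8. cnc-4 had 9.30, 9.11 and 9.31 in TiO2 arrays and 9.68, 9.80 and 9.60 in Control arrays (difference -0.45, limma adjusted p = 0.462). nlp-29, a commonly used reporter of epidermal infection, had 8.79, 8.83 and 8.79 in TiO2 arrays and 9.78, 9.31 and 9.05 in Control arrays (-0.58). fipr-26 had 7.44, 6.93 and 7.17 in TiO2 arrays and 7.65, 7.88 and 8.05 in Control arrays (-0.68, adjusted p = 0.409). The gap between the groups was clear for cnc-4 and narrow for nlp-29 and fipr-26, where single Control arrays came near the TiO2 arrays. cnc-8 differed by -0.37, nlp-33 by -0.47, nlp-31 by -0.33 and nlp-28 by -0.33. The probe sets of the nlp genes and of fipr-26 can detect related genes, so they are not separate measurements with certainty.

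The same family had larger differences in the UV arrays. Of the 27 genes 8 passed for UV+TiO2 against UV, among them 6 of the 7 named above, and 18 genes were below 0 in both comparisons. cnc-4 had 8.01, 7.84 and 7.91 in UV+TiO2 arrays and 9.45, 9.48 and 9.20 in UV arrays, and fell by 1.46 there (limma adjusted p = 0.000108). Its interaction was -1.01 (interval -1.32 to -0.70, unadjusted p = 1.27e-05, adjusted p = 0.143), so the larger difference under UV did not pass over all probe sets. For nlp-29 the difference was -1.58 under UV (adjusted p = 0.0125). The mean of the 27 genes was 7.0, 6.96 and 7.01 in TiO2 arrays against 7.14, 7.17 and 7.16 in Control arrays, and 6.40, 6.34 and 6.36 in UV+TiO2 arrays against 6.94, 6.97 and 6.74 in UV arrays.

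The glutathione S-transferase genes, whose enzymes attach glutathione to reactive compounds, were the list with the lowest median. It was -0.12 over 45 genes, of which 34 were below 0 and none passed. TiO2 arrays lay below all Control arrays for 8 genes, or 17.8%, and above for 0, beside 3.1% and 2.76% of all genes. All 8 lie on chromosome II, where 24 of the 45 are. 4 belong to the 8 measured genes of the clone F37B1, which had a median of -0.26, and 3 to the 7 of the clone Y53F4B, with -0.16. The other 30 genes had a median of -0.05 with 1 such gene, gst-5. Neighbours of this kind are alike in sequence and their probe sets may share transcripts.

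gst-12 had 5.83, 5.91 and 6.18 in TiO2 arrays and 6.38, 6.59 and 6.47 in Control arrays (difference -0.51, limma adjusted p = 0.398). gst-19 had 5.79, 5.59 and 5.62 in TiO2 arrays and 5.996, 6.47 and 6.12 in Control arrays (-0.52, adjusted p = 0.47). gst-5 had 8.17, 8.09 and 7.81 in TiO2 arrays and 8.18, 8.86 and 8.34 in Control arrays (-0.43). For gst-5 the highest TiO2 array and the lowest Control array were almost equal. gst-4, the family member most used as a reporter of SKN-1 activity, was at 0.13 (interval -0.15 to 0.42). The mean of the 45 genes was 6.90, 6.84 and 6.84 in TiO2 arrays against 6.92, 7.03 and 7.004 in Control arrays. In UV+TiO2 against UV gst-12 (-0.02) and gst-19 (0.01) showed no such difference, gst-26 (-0.35) and gst-5 (-0.41) did without overlap, and gst-14 was higher (0.14), so the members differed in whether their UV+TiO2 and UV arrays separated.

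**Figure D3:**
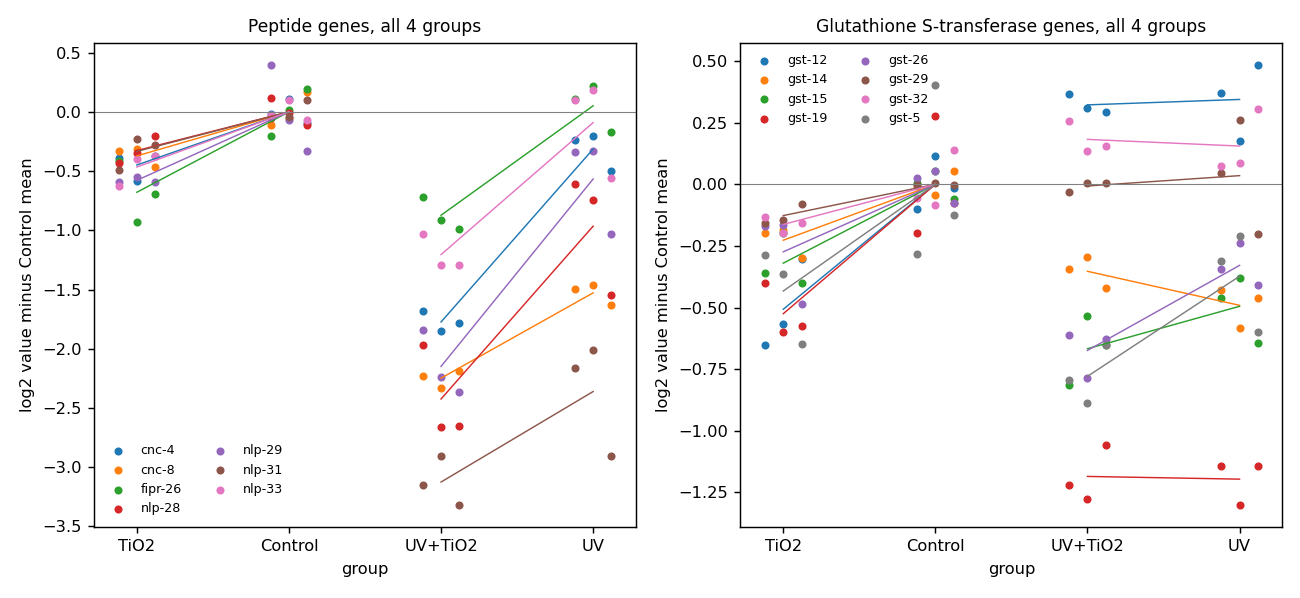
Log2 value minus the gene's Control mean (vertical axis) in TiO2, Control, UV+TiO2 and UV arrays for the 7 peptide genes (left) and the 8 glutathione S-transferase genes (right) whose TiO2 arrays all lay below the Control arrays; points are arrays and lines join the means of each pair of groups. The peptide genes are lower in UV+TiO2 than in UV by up to 1.58, while gst-12 and gst-19 have nearly equal means there.

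The SKN-1 and hypoxia lists also had more genes lower without overlap than the 3.1% of all genes, and none passed. SKN-1 pathway genes had a median of -0.08 over 21, with 4, or 19%, lower without overlap and 0 higher, among them gst-12 and gst-14, which are also in the transferase list, and nit-1 (-0.43). gcs-1, the SKN-1 target that makes the first step of glutathione synthesis, was at 0.06. Hypoxia pathway genes had a median of -0.10 over 16, with 5 lower without overlap, or 31.2%, and 0 higher, beside 3.1% and 2.76% of all genes. These were cysl-2, sqrd-1 (-0.33), a sulfide oxidoreductase, rhy-1 (-0.31), a regulator of HIF-1, cah-4 (-0.32), a carbonic anhydrase, and cysl-3 (-0.24). For rhy-1 and cysl-3 Control replicate 1 almost equalled the highest TiO2 array. The probe sets of cysl-2 and cysl-3 are of a kind that can also detect related genes. The mean of the 16 genes was 8.49, 8.666 and 8.553 in TiO2 arrays against 8.747, 8.615 and 8.635 in Control arrays. By this mean the groups overlapped. In UV+TiO2 against UV cah-4 was at -0.52 (limma adjusted p = 0.0955), sqrd-1 at -0.14 and rhy-1 at 0.06.

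None of the genes for the processing of foreign compounds passed limma's adjusted p of 0.05. Cytochrome P450 genes had a median of -0.01 over 73, with 6 higher without overlap, or 8.22%, and 1 lower, or 1.37%, beside 2.76% and 3.1% of all genes. cyp-13B1 had 8.35, 8.64 and 8.66 in TiO2 arrays and 8.35, 7.73 and 7.80 in Control arrays (difference 0.59, limma adjusted p = 0.547), and its TiO2 replicate 1 and Control replicate 1 were almost equal. UDP-glucuronosyltransferases had a median of 0.01 over 64, with ugt-13 at -0.67 (adjusted p = 0.506), and ABC transporters -0.01 over 51, with mrp-5 at 0.40 and pgp-14 at -0.40.

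The 32 chosen marker genes stand for stress and toxicity, and also for uptake, growth signalling and yolk. Of these 30 were measured and none passed limma's adjusted p of 0.05. The 95% interval lay within 2-fold for 29 of them and within 1.5-fold for 23, and it included 0 for 26. The exception to the 2-fold bound was hsp-16.41, a small heat shock gene, with 6.40, 6.35 and 6.005 in TiO2 arrays and 7.14, 7.15 and 6.45 in Control arrays. Its difference was -0.66 (interval -1.07 to -0.24, adjusted p = 0.713), with Control replicate 3 close to the highest TiO2 array. hsp-16.2, of the same family, was at -0.27 with overlapping arrays.

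Superoxide dismutases, which remove superoxide, gave -0.23 for sod-1, -0.04 for sod-2, -0.19 for sod-3 and -0.20 for sod-4. sod-1 had 12.01, 11.80 and 11.99 in TiO2 arrays and 12.10, 12.20 and 12.18 in Control arrays, so all TiO2 arrays were lower. The interval of the sod-1 difference was -0.41 to -0.04. The metallothioneins mtl-1 and mtl-2, which bind metal ions, were at -0.21 (interval -0.71 to 0.29) and -0.13 (-0.41 to 0.16). The ferritin gene ftn-1 had 11.36, 10.92 and 10.63 in TiO2 arrays and 11.44, 11.32 and 11.28 in Control arrays, a difference of -0.38 (interval -0.70 to -0.06) with overlap. The chaperones hsp-4 of the endoplasmic reticulum and hsp-6 and hsp-60 of mitochondria were at -0.17, -0.02 and -0.15. For hsp-4 all TiO2 arrays lay below all Control arrays, with an interval of -0.35 to 0.003. The p53 homologue cep-1 was at -0.25 (interval -0.68 to 0.18) and the cell death activator egl-1 at -0.10.

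Among the marker genes, those of uptake and signalling gave intervals that held 0, with 1 exception. The endocytosis gene rme-8 was at -0.15, the lysosomal membrane gene lmp-1 at 0.05, the p38 kinase gene pmk-1 at 0.08 and daf-16 at -0.03. sma-3, which encodes a Smad protein of the body size TGF-beta pathway, had 6.10, 6.198 and 6.29 in TiO2 arrays and 6.01, 5.81 and 5.98 in Control arrays (difference 0.27, interval 0.05 to 0.48), with no overlap, and was at 0.30 in UV+TiO2 against UV. The TGF-beta list as a whole had a median of 0.07 over 22 genes, with 2 higher without overlap, or 9.09%, beside 2.76% of all genes. Endocytosis and phagocytosis genes had a median of 0.01 over 30, metal response genes -0.04 over 25 and autophagy genes 0.04 over 27, with 0 separated genes in each list.

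**Figure D4:**
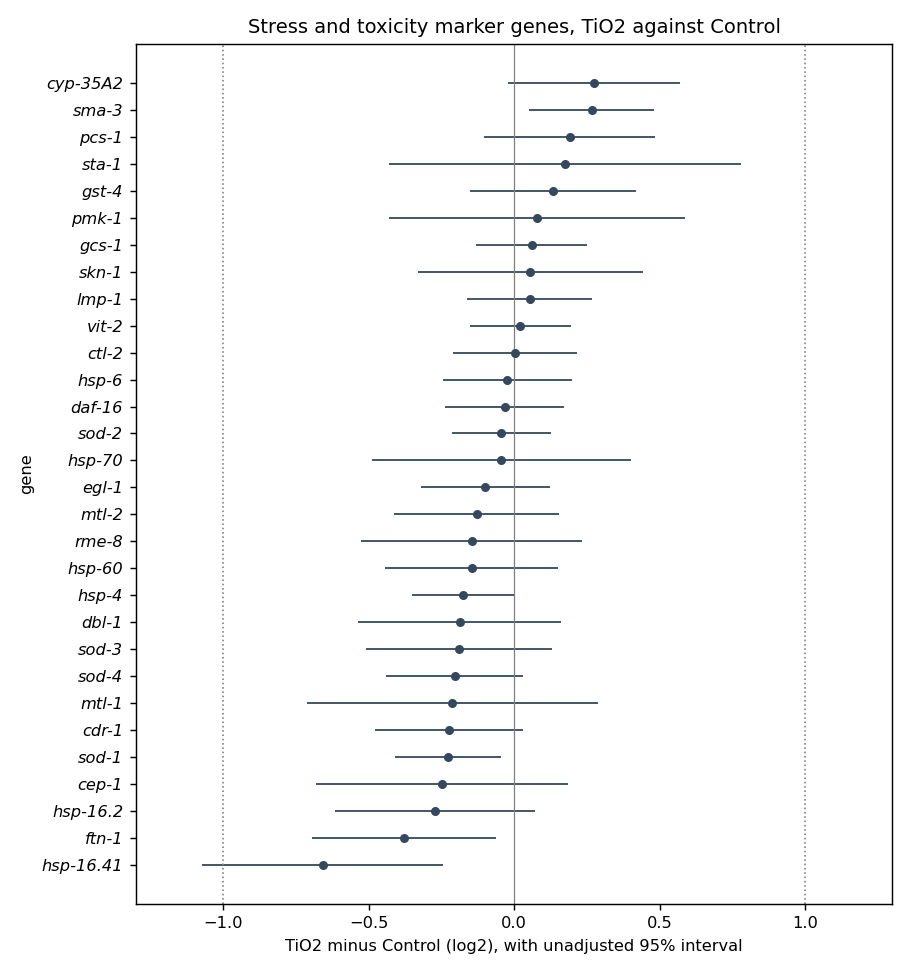
Log2 difference of TiO2 minus Control (horizontal axis) with its unadjusted 95% interval for the 30 marker genes, ordered by difference; dotted lines mark 2-fold lower and higher. Only hsp-16.41 has an interval that passes a dotted line, and 26 intervals include 0.

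In the lists for the surfaces that touch the medium none passed. In the pharynx list 7 of 72 genes, or 9.72%, were lower without overlap and 1, or 1.39%, was higher, beside 3.1% and 2.76% of all genes, with a median of -0.04. The lower ones were pqn-31 (-0.69), pqn-71 (-0.63), pqn-75 (-0.54), pqn-94 (-0.49), abu-10 (-0.45), phat-4 (-0.39) and myo-2 (-0.30), the pharyngeal myosin gene, and the higher one was pqn-65 (0.30). The pqn genes are named for proteins rich in glutamine and asparagine. pqn-31 had 6.94, 6.84 and 6.91 in TiO2 arrays and 7.498, 7.19 and 8.07 in Control arrays. Its Control arrays differed among themselves by more than the group means did, and in UV+TiO2 against UV it was at 0.06.

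Among 146 cuticle collagens 12 were lower without overlap, or 8.22%, and 4 higher, or 2.74%, beside 3.1% and 2.76% of all genes, with a median of -0.03. col-130 (-0.61), col-39 (-0.57) and col-12 (-0.40) were the lowest of them and col-121 (0.44) the highest. Moulting genes had a median of 0.12 over 29, with 22 above 0, 3 higher without overlap, or 10.3%, and 0 lower. The 3 were mlt-8 (0.43), nekl-3 (0.23), a kinase needed for moulting, and noah-1 (0.32), a component of the outer matrix. noah-1 had 11.47, 11.48 and 11.58 in TiO2 arrays and 11.14, 11.29 and 11.13 in Control arrays. The mean of the 29 moulting genes was 7.88, 7.91 and 7.84 in TiO2 arrays against 7.77, 7.74 and 7.75 in Control arrays. In UV+TiO2 against UV noah-1 was at 0.39 with overlap, while mlt-8 and nekl-3 were lower without overlap, at -0.37 and -0.34. The interaction was 0.06 for noah-1 (limma adjusted p = 0.99), -0.81 for mlt-8 (adjusted p = 0.587) and -0.57 for nekl-3 (adjusted p = 0.807). The list of late embryo and larva markers had a median of 0.02 over 18 genes, with 1 lower without overlap, and its part in the moulting and collagen values was not tested.

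**Figure D5:**
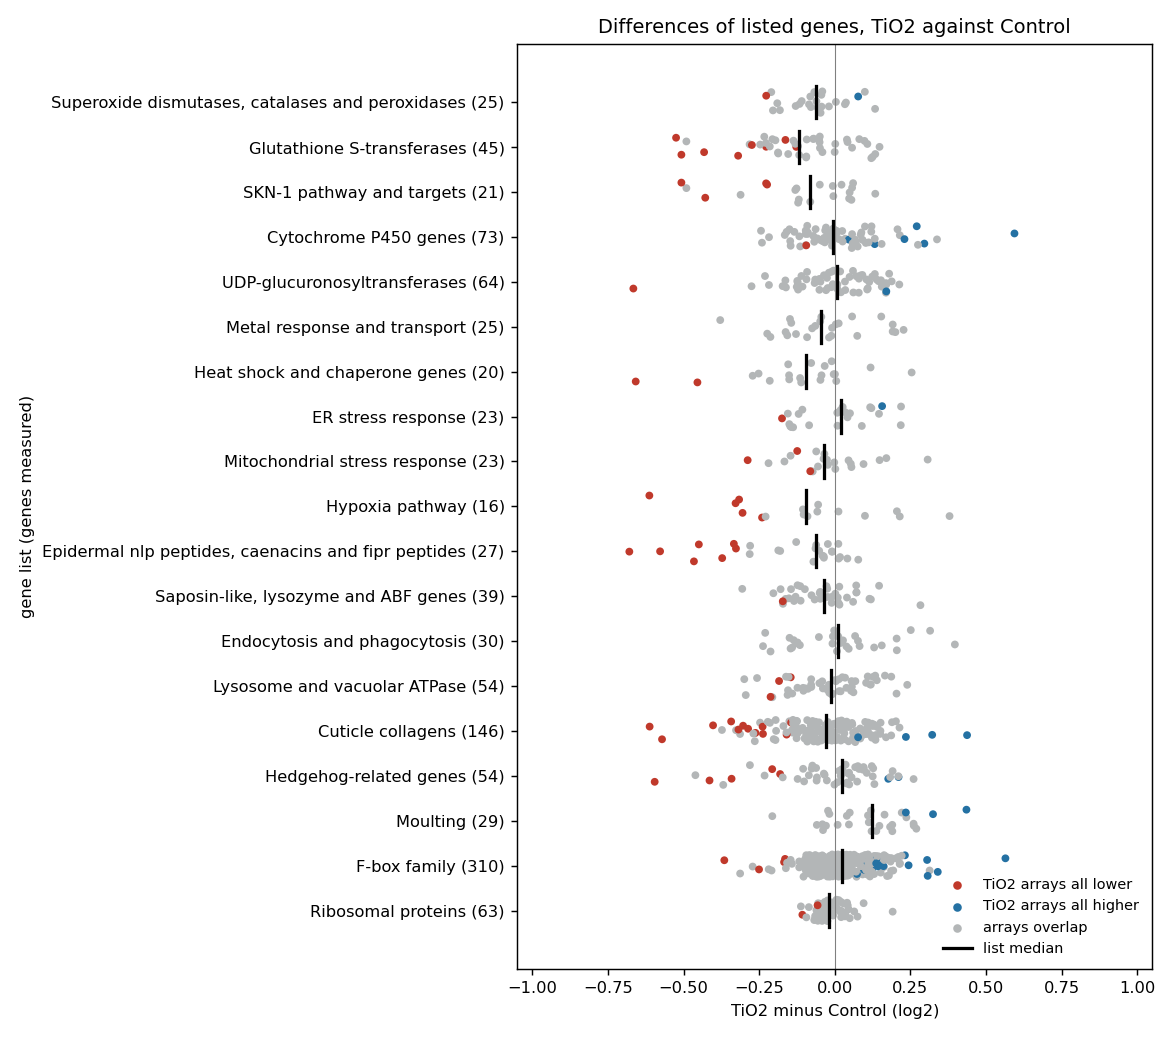
Log2 difference of TiO2 minus Control (horizontal axis) for every measured gene of 19 gene lists, with list sizes in brackets; red and blue points are genes whose TiO2 arrays all lay below or above the Control arrays, and black bars are list medians. The medians stay between -0.12 and 0.12, and the shares of red points are 31.2% in the hypoxia list, 25.9% in the peptide list and 17.8% in the transferase list.

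F-box genes, which encode adaptors for protein degradation, had the most genes higher without overlap by number, in a list that is also the longest. Of 310 measured 19, or 6.13%, were higher without overlap and 4, or 1.29%, lower, beside 2.76% and 3.1% of all genes. The median was 0.02, with 199 above 0. By share the list came after fatty acid synthesis (10.8%), moulting (10.3%), TGF-beta (9.09%), JAK/STAT (8.33%) and cytochrome P450 genes (8.22%). Most of the 19 differed by less than 0.25, and fbxb-101 (0.56) and fbxc-28 (0.34) were the largest. The list's array means were 5.28, 5.25 and 5.28 in TiO2 arrays and 5.25, 5.21 and 5.27 in Control arrays, near the low end of the array's range.

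None of the lipid genes passed. Fatty acid synthesis and desaturation had a median of 0.06 over 37 genes, with 4 higher without overlap, or 10.8%, and 0 lower, beside 2.76% and 3.1% of all genes. Among them were fasn-1 (0.22), the fatty acid synthase, elo-6 (0.30), an elongase, and nhr-13 (0.27), a nuclear receptor. Fatty acid breakdown and fasting had a median of 0.01 over 72, with 40 above 0 and 32 below, and 4 higher without overlap, or 5.56%, and 1 lower, or 1.39%. lipl-1, a lysosomal lipase known to be switched on by fasting, had 6.17, 6.48 and 6.38 in TiO2 arrays and 5.83, 6.06 and 5.92 in Control arrays (difference 0.40, limma adjusted p = 0.711). Both groups were without food for the same time.

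DNA damage genes had a median of -0.03 over 43, with 3 lower without overlap, or 6.98%, and 0 higher, beside 3.1% and 2.76% of all genes. rad-50, needed for the repair of double-strand breaks, had 6.58, 6.87 and 6.31 in TiO2 arrays and 7.51, 7.12 and 7.93 in Control arrays (difference -0.94, limma adjusted p = 0.252). atl-1, the ATR checkpoint kinase, had 7.68, 8.04 and 7.78 in TiO2 arrays and 8.69, 8.12 and 8.75 in Control arrays (-0.69, adjusted p = 0.399). Control replicate 2 was the nearest to the TiO2 arrays for both. chk-1, a kinase of the same checkpoint, differed by -0.28.

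A single Control array also stood apart in other large differences that did not pass. trt-1, the telomerase reverse transcriptase gene, had 7.47, 7.81 and 7.57 in TiO2 arrays and 8.94, 8.10 and 8.84 in Control arrays (difference -1.01, limma adjusted p = 0.47), with Control replicate 2 the lowest. F58B3.4 had 7.21, 7.82 and 7.48 in TiO2 arrays and 8.44, 7.87 and 8.74 in Control arrays (-0.85, adjusted p = 0.682), again with Control replicate 2 the lowest. Without that array 4 probe sets passed instead of 1: grl-21 (-0.61), atl-1 (-0.89), nhr-153 (-0.94) and T22F3.11 (1.08), each with adjusted p = 0.0488. Without Control replicate 3 the 1 probe set that passed was not grl-21 but C18H7.1 (-0.94, adjusted p = 0.00432).

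Among the higher ones the spread was wider still. nhr-18, a nuclear receptor gene, had 7.18, 7.64 and 8.12 in TiO2 arrays and 7.70, 7.201 and 5.70 in Control arrays, a difference of 0.78 with overlap. lam-2, the laminin gamma gene, had 7.05, 7.63 and 7.62 in TiO2 arrays and 7.10, 7.11 and 5.91 in Control arrays, a difference of 0.72 with overlap. Control replicate 3 was far below the other arrays for both genes. pud-4 and B0228.6 (0.71) differed by similar amounts, the second with overlap.

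The 41 lists together held 2017 distinct genes, and grl-21 was the only one that passed. Their medians ran from -0.12 for the glutathione S-transferases to 0.12 for the JAK/STAT-related genes, beside -0.0019 for all probe sets. Ribosomal proteins had a median of -0.02 over 63 genes, with the interval within 1.5-fold for all 63, and the respiratory chain -0.05 over 39. Insulin and DAF-16 genes (22), p38 and epidermal immune signalling (22) and yolk proteins (5) had no gene whose arrays separated in either direction.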

How the data were processed

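Total RNA of each sample was purified on columns, and 300 ng of it was amplified, biotinylated and hybridized to 1 Affymetrix array. The authors deposited log2 values made by RMA, and the submitters' processing notes name GCOS and the Affymetrix Expression Console as software, without versions. RMA removes background, equalizes the distributions of the arrays by quantiles and summarizes each probe set as 1 log2 value, so a loss of RNA common to all genes would not show. Of 22625 probe sets 77 controls were left out, and low values were kept. By the platform annotation 20766 of the probe sets had 1 symbol, 887 several and 895 none, and only those with 1 were named. Probe sets ending in _x_at (1227) or _s_at (5484) can detect related genes. A table of RefSeq genes (WBcel235) gave names and chromosomes only, and no coordinates are printed because the array files name no build.

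limma 3.58.1 under R 4.3.3 fitted group means over all 12 arrays (lmFit and eBayes; 8 residual and 4.37 prior degrees of freedom), two-sided, with Benjamini-Hochberg adjustment over all 22548 probe sets and a threshold of 0.05. Contrasts were TiO2 minus Control, UV+TiO2 minus UV and their difference (the interaction). Intervals are unadjusted 95% intervals from the moderated SE, whose median was 0.118. The number of arrays limits the precision. The procedure was tested on simulated data, in which arrays varied independently and a probe set had the same spread in all groups. The real groups differed in spread, so the simulation cannot show how the calls and intervals hold here.

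In lists the probe set with the highest mean stood for a gene that has several, giving 17118 genes. Named were genes past the threshold, the 12 with the smallest p in each direction without overlap between arrays, the 5 largest differences in each direction, up to 3 members of each list with the smallest p, and 32 marker genes, of which 30 were measured. Separated list members, the genes called for UV+TiO2 against UV and the neighbours of dct-7 were named after their values were seen. The members and lists were chosen with earlier results of these data known, so no list has a test, only counts and a median. The alternatives tried were a trended and robust prior variance, a replicate block, a filter on low values, renewed quantile normalization, median centring, array weights, 1 probe set per gene, the 6 arrays of a comparison alone, each array's SD as a covariate, and leaving out each array. List medians in these alternatives were added after seeing the data.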

Additional observations from a re-analysis of the deposited data

How the results depend on the processing

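For TiO2 against Control the count of 1 call became 0 with a replicate block, with a prior variance that follows the level, without the lowest 30% of probe sets, with renewed quantile normalization, with median centring and in a fit of the 6 arrays alone. It ran from 0 to 4 when single arrays were left out. grl-21 passed without Control replicate 2 and in none of the other 11, and the 1 call without Control replicate 3 was C18H7.1. With array weights, which gave TiO2 replicate 1 and Control replicates 1 and 3 little weight (0.364, 0.279 and 0.322) and Control replicate 2 much (1.83), it was 28, of which 24 were lower. Among the named genes the count was 0 in the same 6 alternatives, 15 with array weights and 0 to 3 with single arrays left out. UV+TiO2 against UV gave 20 calls, 32 with the SD covariate, 1856 with array weights and 2 to 69 with single arrays left out. The interaction gave 0 calls, 220 with array weights and 1 with the prior variance that follows the level. The cause was not tested.

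Same-numbered arrays deviated from their group means with r between -0.714 and 0.501 over the 18 pairs of all groups, and between -0.714 and -0.232 for TiO2 with Control. Control with UV gave 0.501, 0.085 and 0.473. Not every pair was above 0.1, so the numbers were not taken to pair the samples. Some arrays with other numbers also deviated together. TiO2 replicate 2 gave 0.618 with Control replicate 1, and TiO2 replicate 1 gave 0.541 with Control replicate 3. TiO2 replicate 2 with Control replicate 3 went the other way, at -0.505. The replicate block gave 0 calls for TiO2 against Control, 17 for UV+TiO2 against UV and 0 for the interaction.

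Of 163 named probe sets 146 kept their sign in all 21 alternatives, and 17, none past the threshold in the report, turned in at least 1. With array weights atf-7 gave -0.023, atg-4.1 -0.0027, hsp-70 0.0454, sod-2 0.0262, ctl-2 -0.0336, skn-1 -0.0189, cep-1 0.20 and rme-8 0.20, and with renewed quantile normalization hsp-6 gave 0.0070.
Leaving out single arrays gave hsp-6 -0.11 to 0.0418, hsp-70 -0.16 to 0.15, sod-2 -0.0804 to 0.0106, ctl-2 -0.0529 to 0.0584, skn-1 -0.14 to 0.22, rme-8 -0.39 to 0.0266, pmk-1 -0.18 to 0.40, daf-16 -0.11 to 0.0308, vit-2 -0.0417 to 0.0782, vit-1 -0.0101 to 0.26, lmp-1 -0.0357 to 0.11, vit-5 -0.0094 to 0.13, hsp-60 -0.26 to 0.0138 and sta-1 -0.25 to 0.49.

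In all 21 alternatives the list median stayed below 0 for the glutathione S-transferases (-0.16 to -0.08) and the hypoxia pathway (-0.18 to -0.07). So did that of the peptide genes (-0.28 to -0.05). The lists of superoxide dismutases, heat shock, SKN-1, metal response, ABC transporter, respiratory chain, ribosomal protein, pharynx and germline genes also stayed below 0. The median stayed above 0 for the moulting genes (0.08 to 0.14) and for the F-box, JAK/STAT, TGF-beta, fatty acid synthesis and yolk lists. Several alternatives cannot change the difference of a probe set, so an unchanged sign there was fixed. The medians of the hedgehog-related genes, cuticle collagens and DNA damage genes changed sign in 3, 2 and 3 of the 21. The median of all probe sets stayed between -0.02 and 0.01. The probe sets called in the 6 UV+TiO2 and UV arrays alone were read in the TiO2 and Control arrays as an addition made after seeing the data.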
